A study of Homo sapiens with 21 samples.

Results

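Cells of the human line HCC1806 labelled as overexpressing MYC (MYC-OE) were compared with control cells (3xCTL), over all genes of 1 deposited count table. The comparison used 6 libraries of the series' 21, 3 in each group, and 23160 of the table's 60668 genes had enough counts to be tested. HCC1806 is an established line from a triple-negative breast cancer of squamous type, and all libraries came from adherent cultures harvested near confluence. The labels give the genotype of the 3 groups of this table as control, MYC-OE and 3xSR, the last being cells labelled as overexpressing the splicing factors SRSF2, SRSF3 and SRSF7 together. The 3 3xSR libraries served here for the estimate of spread and as another altered line beside MYC-OE. In them SRSF3 and SRSF7 were above 3xCTL by 0.31 and 0.44 on the log2 scale, while SRSF2 was not (-0.06, edgeR adjusted p = 0.389), so the label of that line is borne out for only part of its genes at the gene level. The control bears a name that goes with 3xSR, and whether it carries the same vector as MYC-OE is not given in the sources used here. Nor is it given whether the replicates came from separate cultures or whether each line is 1 clone, so p-values measure only the spread between these libraries, which may be technical.

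MYC is a transcription factor that binds DNA as a heterodimer with MAX, most tightly at the E-box, the palindrome CACGTG. MXD and MNT proteins compete for MAX and repress the same sites, while MLX and the MONDO factors form a parallel branch of the network. MYC is best known for raising genes of ribosome production, nucleotide and polyamine synthesis, glycolysis and cell division, and it is also known for repressing CDK inhibitors and adhesion genes. In basal-like breast cancers MYC is often amplified or highly expressed.

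Total counts ranged from 176784267 to 236495865 in 3xCTL and from 203957408 to 248367765 in MYC-OE. In 4 of the 6 libraries the total exceeded the upper end of the sequencing depth in the labels, so a count may not be 1 read or read pair. Levels are given as CPM, counts scaled to a common library size of 1e6, and 3 counts, taken as the floor of detection, came to 0.0122 to 0.0167 CPM. The libraries of a group differed by more than counting error, and 3xCTL replicate 2 stood apart: its chi-square per degree of freedom was 114 and 86.1 against the other controls, which had 26.6 between them, while the MYC-OE pairs had 17.2 to 24.8. In that library genes of the highest GC decile sat 0.33 below the control mean on the log2 scale (-0.331), and those of the other controls 0.194 and 0.142 above it. Markers of the labelled cells were present: the summed level of 8 basal epithelial genes was 4870 to 5440 CPM in 3xCTL and 5280 to 5510 in MYC-OE. Summed endothelial markers were at 1.17 to 1.62 CPM in 3xCTL and 0.662 to 1.01 in MYC-OE, and the B cell gene MS4A1 and the fibroblast gene DPT had 0 counts in all 6 libraries.

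MYC itself was measured first. Its level was 96.6, 91.0 and 92.6 CPM in the 3xCTL libraries and 171, 170 and 181 CPM in the MYC-OE libraries. All MYC-OE libraries were above all controls, and the log2 fold change was 0.90 (SE 0.0472; adjusted p = 5.7e-08 by edgeR's quasi-likelihood F test, corrected over all genes after Benjamini and Hochberg). The 3xSR libraries, which are not labelled for MYC, held 156, 156 and 159 CPM, a level between the other groups and close to MYC-OE. MYC-OE exceeded 3xSR by only 0.15 on the log2 scale (edgeR adjusted p = 0.029). Endogenous and introduced MYC transcripts cannot be told apart in gene-level counts.

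Of the 23160 genes, 8182 (35.3%) differed between MYC-OE and 3xCTL at an adjusted p under 0.05, 4173 (18.0%) higher and 4009 (17.3%) lower. The shares of 18.0% and 17.3% are the background for every list count of this comparison below. Without 3xCTL replicate 2 the called genes numbered 9009 in all, 4643 higher and 4366 lower. Calls varied with GC content among genes with a mean of at least 1 CPM. In the lowest GC decile 14.9% were higher and 33.0% lower, and in the highest 21.4% and 10.9%. Small changes were common among the calls: 1893 of the higher genes (45.4%) and 2310 of the lower ones (57.6%) moved by less than 0.5 on the log2 scale. Large changes leaned upward, with 246 genes higher and 43 lower by at least 3. With a test that demands more than a 1-unit log2 change, 502 genes were higher and 145 lower, and MYC was not among them. Between MYC-OE and 3xSR, a contrast that uses the same MYC-OE libraries, 34.9% of genes differed, 17.3% higher and 17.6% lower in MYC-OE. Values of 3xSR are given below beside those of the other groups, and its contrast with 3xCTL shares the control libraries.

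**Figure D1:**
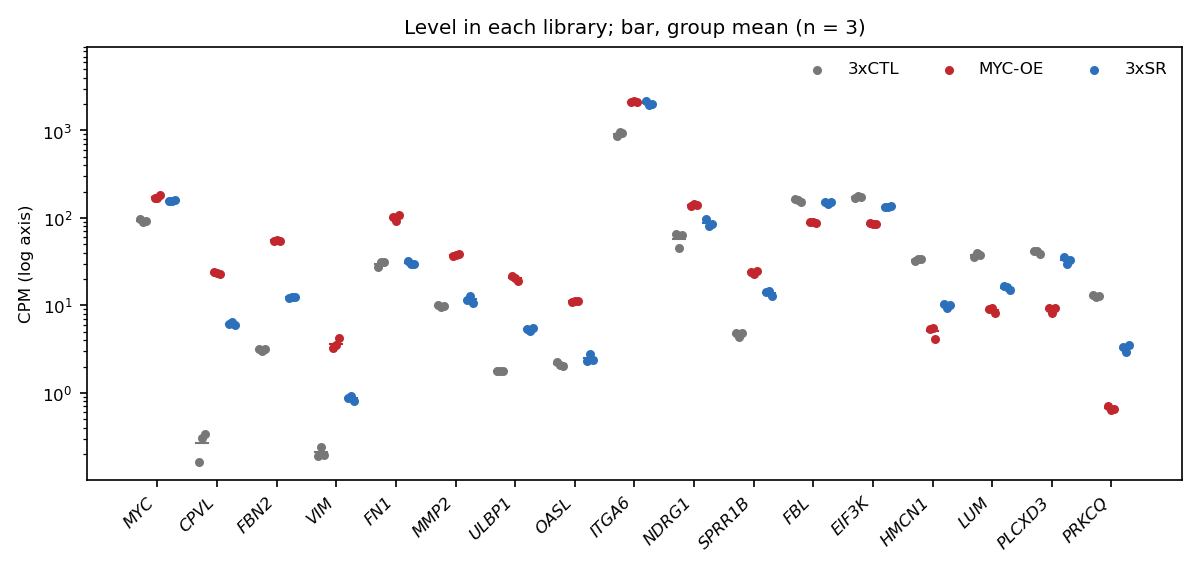
Level of 17 genes in each library, in CPM on a log axis; each point is 1 library, bars are group means of 3 libraries, grey 3xCTL, red MYC-OE, blue 3xSR. MYC rose from 91.0 to 96.6 CPM in 3xCTL to 170 to 181 CPM in MYC-OE, while VIM, FBN2 and CPVL rose far more and PRKCQ and HMCN1 fell.

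The genes with the largest relative rise, among those with a mean of at least 5 CPM, were mostly low or near silent in the control. That limit can be passed through the MYC-OE level alone, so the low control levels are no separate result. CPVL, a serine carboxypeptidase-like protein, rose from 0.162, 0.308 and 0.339 CPM to 24.0, 23.6 and 23.2 CPM (log2 fold change 6.48, edgeR adjusted p = 6.64e-09), with 3xSR at 5.98 to 6.49 CPM. FBN2, a microfibril protein of the extracellular matrix, rose from 3.18, 3.03 and 3.17 CPM to 55.0, 56.3 and 54.5 CPM, with 3xSR at 12.2 to 12.4 CPM. ULBP1, a stress-induced ligand of the natural killer cell receptor NKG2D, stood at 1.79 to 1.80 CPM in the controls and 19.3 to 21.5 CPM in MYC-OE. The matrix enzyme LOXL2, which crosslinks collagen and shares exon sequence with another gene, rose by 3.59 on the log2 scale, the proteoglycan gene SPOCK1 by 3.6 and the integrin gene ITGA4 by 3.69. ADD2, a protein of the membrane skeleton, rose by 3.48, the receptor adaptor GRB10 by 3.43 and the potassium channel genes KCNS1 and KCNMA1 by 3.66 and 3.49. SUSD5 and NRSN2 completed the 12 highest, at 5.41 and 3.39. All 12 genes were also called higher in 3xSR than in 3xCTL, by 1.14 (ADD2) to 4.55 (CPVL) on the log2 scale. Of these 12 genes KCNMA1 alone did not differ between MYC-OE and 3xSR at the threshold. It was at 12.3 to 14.2 against 12.4 to 12.9 CPM (log2 difference 0.09, edgeR adjusted p = 0.488).

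The same ranking leaves out genes with a mean under 5 CPM, so its largest falls could only be in genes above 5 CPM in the control. PRKCQ, a protein kinase C isoform, fell from 13.2, 12.5 and 12.8 CPM to 0.710, 0.631 and 0.660 CPM (log2 fold change -4.26, edgeR adjusted p = 1.75e-10), and its antisense neighbour PRKCQ-AS1 fell by 2.20. HMCN1, the basement membrane protein hemicentin, fell from 31.9, 33.7 and 34.0 CPM to 5.42, 5.59 and 4.16 CPM. The RNA-binding protein RBPMS2 fell by 3.41, the synaptic adhesion genes NLGN1 and SLITRK5 by 2.78 and 2.00, AUTS2 by 2.27 and FHAD1 by 2.19. LUM, a collagen-binding proteoglycan, went from 35.7 to 39.7 CPM in the controls to 8.29 to 9.42 CPM, the endothelin receptor EDNRB fell by 2.18 and the membrane metalloproteinase MMP16 fell by 2.14. Most of these genes were also lower in 3xSR than in 3xCTL, by less than in MYC-OE. The log2 fold changes of 3xSR were -1.97 for PRKCQ, -2.11 for NLGN1, -1.73 for HMCN1 and -1.24 for LUM. PLCXD3 and SLITRK5 moved least in 3xSR (-0.32 and -0.10). PLCXD3 was at 39.1 to 41.9 CPM in 3xCTL, 29.5 to 35.9 in 3xSR and 8.25 to 9.42 in MYC-OE. SLITRK5 was at 17.5 to 20.1, 17.4 to 18.0 and 4.42 to 5.36 CPM in the same order, and 3xSR did not differ from 3xCTL at the threshold (edgeR adjusted p = 0.418).

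Only 5 genes went from at most 0.1 CPM in every control library to at least 1 CPM in every MYC-OE library, and 1 the other way. Coagulation factor F5 was at 0.0108 to 0.0556 CPM in 3xCTL and 1.73 to 2.12 CPM in MYC-OE. TNFRSF19 and DPYSL3 reached 1.02 to 1.59 and 1.10 to 1.15 CPM. Another, ENSG00000273333, shares exon sequence with a neighbour on its strand, so its counts are uncertain, its call was lost without any 1 of the 6 libraries (edgeR adjusted p up to 0.133), and 1 of the 3xSR libraries held 4.65 CPM of it against 0.0274 and 0.0457 in the others. The gene that went off, ENSG00000166104, is an annotated pseudogene at 2.73 to 3.39 CPM in 3xCTL and 0.0690 to 0.0968 CPM in MYC-OE.

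In CPM, which is not corrected for gene length, the largest gains were in genes of the cell surface and the endoplasmic reticulum. CD44, the hyaluronan receptor, rose from 5151, 5762 and 5375 CPM to 8754, 8764 and 8963 CPM (log2 fold change 0.70, edgeR adjusted p = 9.47e-07). The chaperones HSP90B1 and HSPA5 rose by 0.56 and 0.60, CD59, an inhibitor of complement, by 0.72, and the hemidesmosome integrin ITGA6 by 1.22. ITGA6 went from 864 to 953 CPM in 3xCTL to 2123 to 2166 CPM in MYC-OE, and 3xSR was as high at 1978 to 2163 CPM (edgeR adjusted p = 0.382 between the altered lines). The 6 largest losses were all of transcripts of the mitochondrial genome, described with the respiratory chain.

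Of 15 members tested in the network around MYC, 4, MYC included, were higher and 1 lower, where 18.0% of all genes were higher and 17.3% lower. The repressor genes MXD1 and MXI1 rose by 0.59 and 0.32, and MXD1 went from 25.8 to 27.0 CPM to 38.8 to 40.2 CPM. MYCL rose by 0.36, from 3.07 to 4.24 CPM to 4.23 to 4.88 CPM, with overlapping groups, and lost its call without MYC-OE replicate 2 or replicate 3 or 3xCTL replicate 1 or replicate 2 (edgeR adjusted p up to 0.139). MLX fell by 0.20, while MAX and FBXW7, the ubiquitin ligase subunit that targets MYC, had log2 fold changes of 0.01 and -0.01 and did not pass the test. MYCN had at most 2 counts in any library of either group. Without 3xCTL replicate 2 the network had 3 lower members in place of 1, and without MYC-OE replicate 3 it had 2.

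The nucleolar genes of ribosome biogenesis, the group most often named for MYC, did not rise as a group. Of 53 members tested 3 were higher and 10 lower, against 18.0% and 17.3% of all genes, and the list's median log2 fold change was 0.006. NCL (nucleolin) stood at 1022 to 1191 CPM in 3xCTL and 1169 to 1230 CPM in MYC-OE, with overlapping groups (log2 fold change 0.12, edgeR adjusted p = 0.205). NPM1 (nucleophosmin) differed by 0.20 (edgeR adjusted p = 0.0868), NOP56 by 0.01 and the pseudouridine synthase DKC1 by less than 0.01 in size. FBL, the methyltransferase of box C/D snoRNPs, fell from 164, 159 and 152 CPM to 89.1, 89.1 and 87.5 CPM (log2 fold change -0.84, edgeR adjusted p = 1.02e-07), while 3xSR held 145 to 152 CPM. RRN3, the initiation factor of RNA polymerase I, fell by 0.26, and PPAN by 0.47, although PPAN shares exons with a readthrough gene. NHP2, a small H/ACA snoRNP protein, rose by 0.49, NAT10, an RNA acetyltransferase, by 0.17 and RCL1 by 0.29. PPAN lost its call without 3xCTL replicate 1 or any 1 MYC-OE library (edgeR adjusted p up to 0.0768), and NAT10 without MYC-OE replicate 1 or replicate 3 (up to 0.0609), while NCL and NPM1 passed as higher without 3xCTL replicate 2. These counts were unsteady: without 3xCTL replicate 2 the list had 8 members higher, without 3xCTL replicate 1 it had 5, and without 1 of the MYC-OE libraries 4 to 5 were lower. The median changed sign under 6 of the alternatives and stayed between -0.0276 and 0.0205.

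Most ribosomal protein genes of the cytosol were higher. Of 77 genes tested 69 were higher and 1 lower, with a median log2 fold change of 0.30 that ranged from 0.26 to 0.32 over the alternatives. Large and small subunits were alike, with 40 of 45 and 29 of 32 higher. RPL24 rose from 234, 246 and 211 CPM to 393, 378 and 403 CPM (log2 fold change 0.77, edgeR adjusted p = 1.48e-06), and RPS21 from 97.2 to 112 CPM to 190 to 209 CPM. RPL36 rose by 0.67, with a control range of 60.8 to 96.3 CPM. RPS16 alone fell, from 316 to 331 CPM to 201 to 209 CPM. In 3xSR, 8 of the 77 were higher and 4 lower than in 3xCTL, where 3543 and 3184 of all 23160 genes were. Tested directly between the altered lines, 58 were higher in MYC-OE and 1 lower, against 17.3% and 17.6% of all genes. Many ribosomal protein genes have processed pseudogenes of near-identical sequence, and 35 of the 77 share exon bases with another annotated gene on their strand, so single values are uncertain. Short genes as a whole leaned upward: the median log2 fold change was 0.06 in the shortest length decile of genes and -0.10 in the longest, and its part in the ribosomal protein result was not tested.

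**Figure D2:**
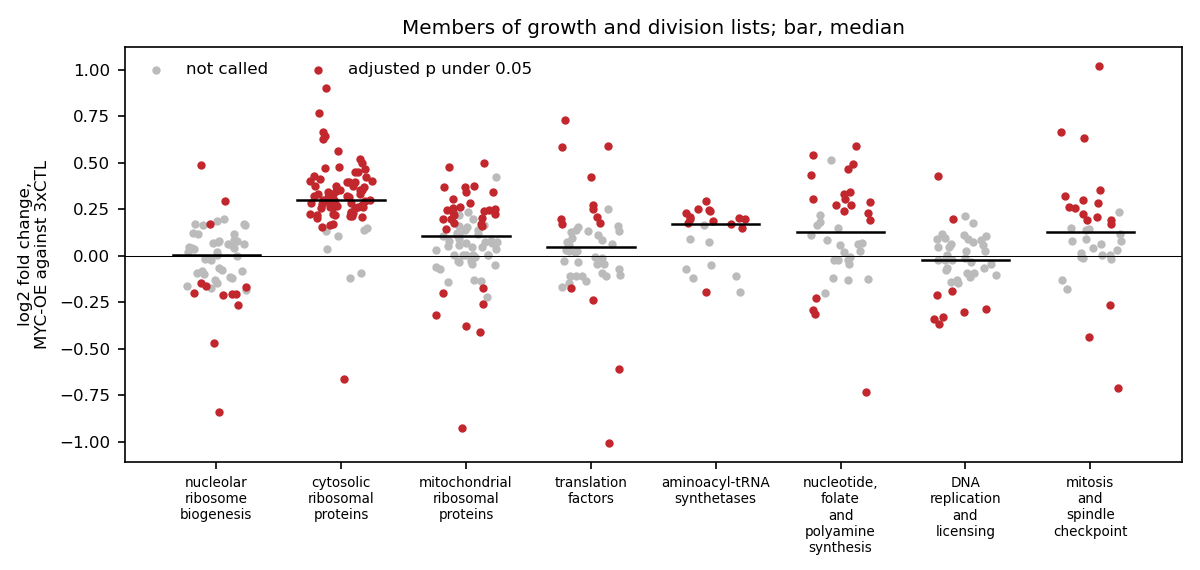
Log2 fold change, MYC-OE against 3xCTL, of each member of 8 growth and division lists; red points passed an adjusted p of 0.05, grey points did not, and the bar is the list median. The cytosolic ribosomal proteins lie around 0.30, with RPS16 alone far below 0, while the nucleolar list centres on 0.

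Mitochondrial ribosomal proteins rose less widely, with 25 of 77 higher and 7 lower (16 higher without MYC-OE replicate 1). MRPL23, MRPS31 and MRPS22 rose by 0.50, 0.47 and 0.38, and MRPS12 fell by 0.92, from 21.6 to 28.7 CPM to 12.3 to 14.2 CPM. Of 48 translation factors 10 were higher and 4 lower, where 18.0% of all genes were higher and 17.3% lower. EIF4EBP1, the inhibitor of the cap-binding protein, rose from 13.4 to 16.8 CPM to 24.4 to 25.6 CPM (log2 fold change 0.73), EIF6, which keeps ribosomal subunits apart, by 0.59, and the elongation factor EEF1A2 by 0.59. Cap-binding EIF4E and its scaffold EIF4G1 did not pass the test (-0.11 and 0.14), though EIF4E did without 3xCTL replicate 3 and EIF4G1 without 3xCTL replicate 1. The EEF1A2 call was lost without MYC-OE replicate 3 or 3xCTL replicate 3 (edgeR adjusted p up to 0.061). EIF3K and EIF3J, subunits of initiation factor 3, fell by 1.00 and 0.61, and EIF3K went from 168 to 178 CPM to 85.0 to 88.6 CPM. Without 3xCTL replicate 2, 18 translation factors were higher, and without MYC-OE replicate 1 or replicate 2 only 2 were lower. Aminoacyl-tRNA synthetases, which charge tRNAs, had 13 of 22 higher and 1 lower, all by small amounts: SARS1 0.30, CARS1 0.25, AARS1 0.24 and IARS1 0.17 higher, and NARS1 lower at -0.19. IARS1 lost its call without any library but 3xCTL replicate 2, and NARS1 lost it without that library, MYC-OE replicate 2 or MYC-OE replicate 3 (edgeR adjusted p up to 0.13 and 0.111). That count dropped to 6 without MYC-OE replicate 1 and 7 without MYC-OE replicate 2; 3 were lower without 3xCTL replicate 2, and none without MYC-OE replicate 2 or replicate 3.

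Genes of nucleotide, folate and polyamine synthesis had 15 of 40 members higher and 4 lower. ODC1, the rate-limiting enzyme of polyamine synthesis and a long-known MYC target, rose from 101, 117 and 100 CPM to 155, 151 and 157 CPM (log2 fold change 0.54, edgeR adjusted p = 5.39e-05). 3xSR was higher still, at 166 to 184 CPM. OAZ1, the antizyme that directs the ODC1 protein to degradation, rose by 0.59, and GMPS of guanine synthesis, PHGDH of serine synthesis and SHMT2 of the mitochondrial folate cycle by 0.49, 0.33 and 0.24. CAD, which starts pyrimidine synthesis, was at 375 to 444 CPM in 3xCTL and 402 to 416 CPM in MYC-OE (edgeR adjusted p = 0.636), and SRM, TYMS and IMPDH2 did not pass the test either, though SRM and IMPDH2 did without 3xCTL replicate 2. DUT, which removes dUTP, fell by 0.73, the folate enzyme MTHFD1 by 0.29 and AZIN1, an inhibitor of the antizyme, by 0.31. Without 3xCTL replicate 2 the list had 7 lower members.

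To look for the MYC binding motif, the 300-base RefSeq promoter windows (250 bases before to 50 after the start, GRCh38.p14) were searched for CACGTG, which reads the same on both strands. Of 27305 RefSeq promoters, 7.43% held it, and of the 13668 tested genes with a window 9.53%. The share was 8.82% in genes called higher (267 of 3028, 95% Wilson interval 7.86% to 9.88%), 10% in genes called lower (266 of 2661, 8.91% to 11.2%) and 9.65% in genes not called. The share in genes called higher was thus no larger than in genes that did not pass the test. In the nucleolar list 18 of 45 windows (40.0%) held the motif, 6 of them (13.3%) in the 250 bases before the start. In the nucleotide, folate and polyamine list, with 15 of 40 members higher, 7 of 34 windows (20.6%) held it, 6 of them (17.6%) before the start. Over all tested genes 8.38% held it before the start. The cytosolic ribosomal protein list, where most members rose, had it in 3 of 62 (4.84%), and the mitochondrial one in 6 of 69 (8.7%). The chromosome that carries MYC was left out of the next choice, as were motifs in the 50 bases after the start. Only 4 called members of the nucleolar, nucleotide and polyamine lists then had CACGTG before the start, 2 higher and 2 lower. They are printed 5′ to 3′ on the gene's strand, with the motif in capitals, since these lists are the ones most tied to MYC.
NAT10, chr11:34105554-34105628, + strand, higher: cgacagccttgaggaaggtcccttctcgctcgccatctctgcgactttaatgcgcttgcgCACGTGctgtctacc
MTHFD1L, chr6:150866272-150866397, + strand, higher: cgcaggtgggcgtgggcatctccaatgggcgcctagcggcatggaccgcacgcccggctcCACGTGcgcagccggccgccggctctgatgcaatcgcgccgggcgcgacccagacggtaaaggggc
MTHFD1, chr14:64388278-64388352, + strand, lower: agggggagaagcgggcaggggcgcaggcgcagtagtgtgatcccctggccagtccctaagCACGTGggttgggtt
UTP20, chr12:101280035-101280104, + strand, lower: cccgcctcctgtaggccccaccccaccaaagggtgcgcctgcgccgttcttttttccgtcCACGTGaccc
The motif began 15 bases before the start in NAT10 and MTHFD1, 10 in UTP20 and 154 in MTHFD1L. NAT10 went from 291 to 320 CPM to 335 to 346 CPM, and MTHFD1L, a mitochondrial folate enzyme, from 43.1 to 51.4 CPM to 53.4 to 53.7 CPM. MTHFD1 went from 180 to 204 CPM to 154 to 160 CPM, and UTP20, a factor of small subunit assembly, from 79.6 to 93.4 CPM to 73.1 to 74.9 CPM. NAT10 lost its call without MYC-OE replicate 1 or replicate 3, MTHFD1L without any library but 3xCTL replicate 2 and UTP20 without any but 3xCTL replicate 3 (edgeR adjusted p up to 0.0609, 0.0869 and 0.122). A match describes the letters of the window and was not tested for MYC binding.

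Most glycolysis and hypoxia-responsive genes rose: 20 of 31 were higher and none lower, with a median log2 fold change of 0.31. BNIP3, a mitophagy receptor, rose from 13.1, 13.1 and 12.6 CPM to 31.6, 34.4 and 34.3 CPM (log2 fold change 1.37, edgeR adjusted p = 1.36e-08). PDK1, which keeps pyruvate out of mitochondria, rose by 1.23 and NDRG1, a stress-responsive gene reported as repressed by MYC, by 1.29, from 45.7 to 65.0 CPM to 139 to 144 CPM. EGLN3, an oxygen-sensing hydroxylase, rose by 1.98 from a mean of 0.947 CPM. LDHA, which makes lactate, rose from 1344 to 1519 CPM to 1688 to 1770 CPM (0.28), HK2 by 0.29 and the glucose transporter SLC2A1 by 0.38. ENO1 (0.05) and VEGFA (-0.10) did not pass the test. Without 3xCTL replicate 2 the list had 4 lower members, VEGFA among them.

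In the nuclear-encoded respiratory chain 22 of 57 genes were higher and 2 lower. The ATP synthase subunits ATP5MC3 and ATP5F1E rose by 0.80 and 0.63 and the complex I subunit NDUFA13 by 0.51, while CYCS (cytochrome c) fell by 0.54. Lower members numbered 7 without 3xCTL replicate 2 and 4 without 3xCTL replicate 3. The mitochondrial genome ran against this: none of its 37 tested genes was higher and 24 were lower, 12 of the 13 protein-coding ones among them, with medians of -0.43 over all and -0.30 over the protein-coding ones. MT-ND1, a complex I subunit, fell from 5175, 5440 and 5369 CPM to 3275, 3312 and 3528 CPM (log2 fold change -0.66, edgeR adjusted p = 4.25e-05), and MT-CO3 and MT-ATP6 fell by 0.46 and 0.50. MT-CO1, MT-ND4 and MT-ND2 fell by 0.26, 0.24 and 0.33. MT-ND4 lost its call without 3xCTL replicate 2 or any 1 MYC-OE library (edgeR adjusted p up to 0.0955), and MT-CO1 without MYC-OE replicate 1 (0.0616). The rRNAs MT-RNR1 and MT-RNR2 did not pass the test (0.04 and -0.06). Mitochondrial transcripts took 10.9% to 12.2% of counts in 3xCTL and 9.36% to 9.75% in MYC-OE. In bulk libraries fewer mitochondria and fewer transcripts in each cannot be told apart.

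Sterol and fatty acid synthesis showed no common direction, with 8 of 31 genes higher, 3 lower and a median near 0. TM7SF2 of cholesterol synthesis rose by 0.72, the acetyl-CoA synthetase ACSS2 by 0.34, and FADS2 and FDPS fell by 0.23 and 0.19, while FASN, HMGCS1 and SCD did not pass the test (-0.25, -0.13 and 0.13), though FASN and SCD did without 3xCTL replicate 2. FADS2 lost its call without any library but 3xCTL replicate 2 (edgeR adjusted p up to 0.163). With a library left out the higher members numbered 5 without MYC-OE replicate 1, MYC-OE replicate 2 or 3xCTL replicate 1, and the lower ones 8 without 3xCTL replicate 2 and 1 without 3xCTL replicate 1 or any 1 MYC-OE library.

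Of 22 cyclins, kinases, inhibitors and E2F factors of the G1 phase tested, 9 were lower and 5 higher, where 17.3% of all genes were lower and 18.0% higher, with a median of -0.13. CCNE2 fell from 26.5 to 27.4 CPM to 17.6 to 18.5 CPM (log2 fold change -0.58, edgeR adjusted p = 4.44e-05), CCND1 by 0.26, and E2F1, E2F2 and E2F3 by 0.31, 0.42 and 0.33. CDKN1A (p21), which MYC is known to repress, was higher, at 14.6 to 18.4 CPM in 3xCTL and 29.04 to 29.83 CPM in MYC-OE (log2 fold change 0.83, edgeR adjusted p = 5.11e-06). 3xSR was at 33.8 to 35.8 CPM. CDKN1B (p27) fell by 0.28, and CDKN2A and CDKN2B had 0 counts in all 6 libraries. CDK4 did not pass the test (-0.08). CCND2 had a log2 fold change of 2.08 between levels under 0.5 CPM and did not pass with all libraries, but did without 3xCTL replicate 1 or replicate 3.

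DNA replication and licensing genes had 2 of 42 members higher and 7 lower, against 18.0% and 17.3% of all genes. MCM2 rose by 0.43 and MCM3 fell by 0.37, although both are subunits of the same helicase. Leaving out 3xCTL replicate 2 gave 6 higher, and leaving out 3xCTL replicate 3 or any 1 MYC-OE library gave 1. PCNA did not pass the test (0.09). Mitotic genes had 14 of 36 higher and 3 lower (5 lower without 3xCTL replicate 2). SPC25, a kinetochore protein, rose from 7.47 to 8.14 CPM to 14.7 to 16.8 CPM, the kinase AURKA by 0.67, UBE2C of the anaphase-promoting complex pathway by 0.63 and CCNB1 by 0.35. The kinetochore genes KNL1 and SPC24 and the checkpoint kinase gene BUB1B fell by 0.71, 0.43 and 0.27. MKI67, the proliferation marker, was at 1075 to 1194 CPM in 3xCTL and 1216 to 1315 CPM in MYC-OE and did not pass the test (0.12, edgeR adjusted p = 0.144).

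Of 34 splicing factor genes for SR proteins and hnRNPs, 10 were lower and 3 higher. SRSF10 fell from 277, 323 and 279 CPM to 202, 206 and 196 CPM (log2 fold change -0.54, edgeR adjusted p = 3.26e-05), HNRNPL by 0.51, SRSF2 by 0.48 and SRSF1, known as a MYC target in other cells, by 0.36. SRSF6 and SRSF9 rose by 0.34 and 0.19. The other higher member, SRSF12, had 0 counts in every 3xCTL library and 0.0704 to 0.0845 CPM in MYC-OE. SRSF3, SRSF7, PTBP1 and HNRNPA1 did not pass the test.

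Stress-response genes were mostly higher. Of 33 genes of the integrated stress and unfolded protein responses 20 were higher and 1 lower, with a median of 0.30. In 3xSR 15 of the 33 were higher and 3 lower than in 3xCTL, where 3543 and 3184 of all 23160 genes were. Between the altered lines 17 were higher and 7 lower in MYC-OE, against 17.3% and 17.6% of all genes. ASNS, asparagine synthetase and a target of the transcription factor ATF4, rose from 37.0, 42.7 and 34.5 CPM to 74.2, 75 and 73.3 CPM (log2 fold change 0.96, edgeR adjusted p = 7.56e-07), with 3xSR at 39.4 to 40.7 CPM. SLC43A1, an amino acid transporter, rose by 1.79, ATF3 by 1.18, the glutamine transporter SLC1A5 by 0.33 and HSPA5 from 2477 to 2812 CPM to 3898 to 4031 CPM. SLC38A2 fell by 0.16, and ATF4 itself (0.12) and SLC7A5 (0.15) did not pass the test, though ATF4 did without 3xCTL replicate 2. SLC38A2 lost its call without any library but MYC-OE replicate 2 and 3xCTL replicate 1 (edgeR adjusted p up to 0.137). The lower count was 2 without 3xCTL replicate 1 and 0 without 3xCTL replicate 3, MYC-OE replicate 1 or MYC-OE replicate 3. Among p53 targets 5 of 17 were higher and 2 lower, led by BBC3 (0.78), which encodes the BH3-only protein PUMA, BTG2 (0.55) and the death receptor TNFRSF10B (0.49), while MDM2 and GADD45A did not pass. Without MYC-OE replicate 2 only 3 were higher, and 0 to 1 were lower without 3xCTL replicate 1, 3xCTL replicate 3 or any 1 MYC-OE library. In the BCL2 family the survival gene BCL2 fell from 8.65 to 8.89 CPM to 5.10 to 5.50 CPM (log2 fold change -0.72) and BCL2L2 by 0.52, and 5 of 8 BH3-only genes, whose proteins promote cell death, were higher, with HRK at 0.70, BIK at 0.57, BAD at 0.49 and PMAIP1 at 0.29, while BMF fell by 0.49. Calls were lost for BAD without 3xCTL replicate 3 or any 1 MYC-OE library (edgeR adjusted p up to 0.144), for PMAIP1 without MYC-OE replicate 2 or 3xCTL replicate 3 (0.0675) and for BMF without MYC-OE replicate 1, 3xCTL replicate 1 or 3xCTL replicate 3 (0.0713). Over the 15 tested family members the 5 higher became 3 without MYC-OE replicate 2 or 3xCTL replicate 3. MCL1, BCL2L1 and BCL2L11 did not pass the test.

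**Figure D3:**
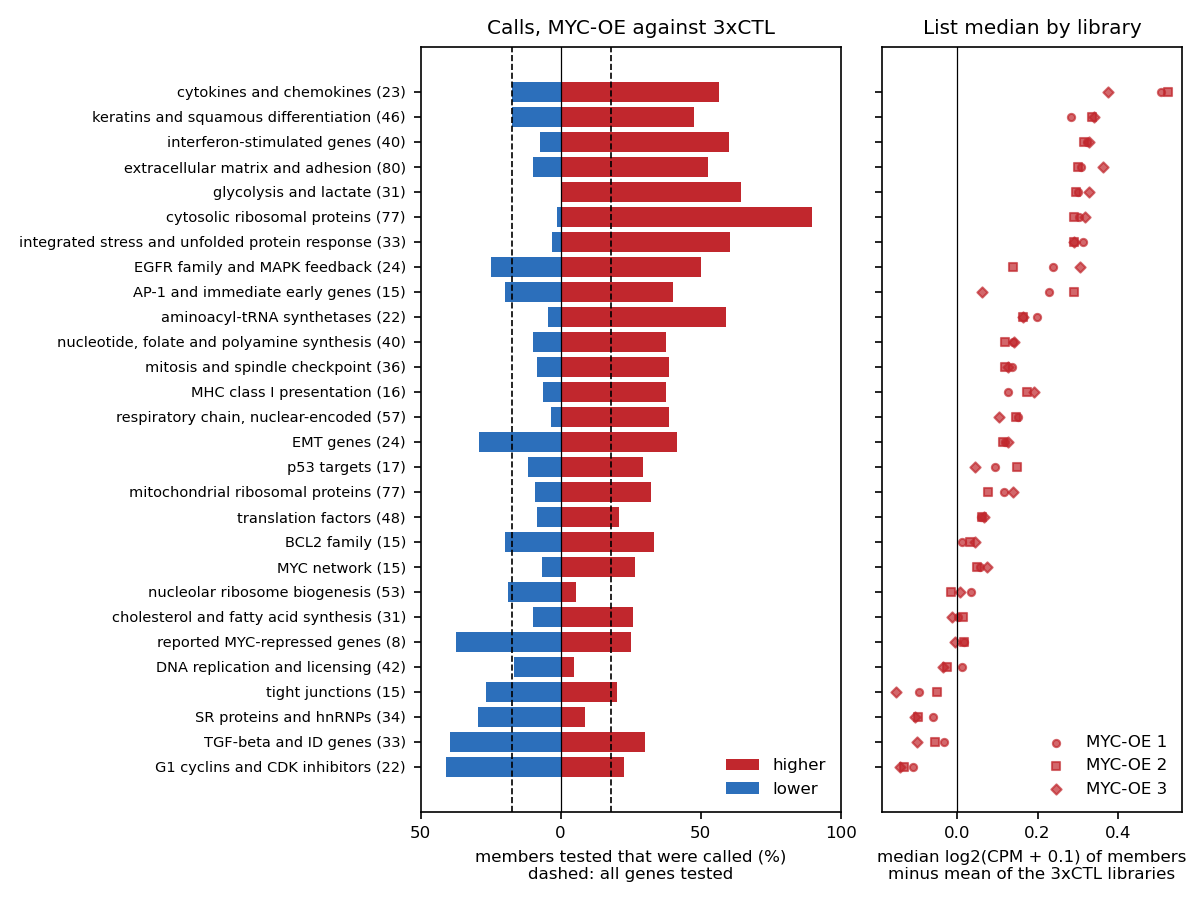
Left, percent of tested members of each of 28 lists called higher (red) or lower (blue) in MYC-OE, with dashed lines at the 18.0% and 17.3% of all genes; the number tested is in brackets. Right, the list median in each MYC-OE library on the log2(CPM + 0.1) scale, relative to the mean of the 3xCTL libraries: the 3 libraries lie close together for most lists.

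Interferon-stimulated genes were mostly higher. Of 40 tested 24 were higher and 3 lower, with a median of 0.32. OASL, an antiviral protein of the oligoadenylate synthetase family, rose from 2.27, 2.06 and 2.04 CPM to 11.1, 11.2 and 11.2 CPM (log2 fold change 2.39, edgeR adjusted p = 7.16e-09), while 3xSR was at 2.29 to 2.75 CPM. HERC5, the ligase for ISG15, rose by 1.4, IFI35 by 1.26 and ISG15 from 3.52 to 6.98 CPM to 9.43 to 11.6 CPM. RSAD2 (viperin) went from 0.0498 to 0.106 CPM to 0.935 to 1.16 CPM. IRF9, a transcription factor of the interferon response that shares exons with a neighbour, fell by 0.52. OAS3 and IFIT5 fell by 0.17 and 0.38, and OAS3 lost its call without any library but 3xCTL replicate 2 (edgeR adjusted p up to 0.149). Against 3xSR 24 of the 40 were higher in MYC-OE and 5 lower. In antigen presentation 5 of 6 genes of the class I heavy and light chains were higher, with HLA-B at 0.68 and HLA-F at 0.58. The light chain gene B2M did not pass (0.12), though it did without 3xCTL replicate 2, nor did the peptide transporter TAP1 (0.02) or CD274, which encodes PD-L1 (0.12). NLRC5, the transactivator of class I genes, fell by 0.41. HLA genes are highly alike and differ between people, so reads can be split among them.

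Of 23 cytokine and chemokine genes 13 were higher and 4 lower. IL1B rose from 6.80, 8.25 and 6.73 CPM to 16.5, 17.4 and 16.2 CPM (log2 fold change 1.2, edgeR adjusted p = 8.4e-07), IL1A by 0.98 and the neutrophil attractant CXCL8 by 0.56. CCL5, a T cell attractant also induced by interferons, rose from 0.129 to 0.156 CPM to 2.42 to 2.85 CPM. IL24 and IL6 rose by 2.01 and 1.26 at low levels, to 0.726 to 1.25 and 0.209 to 0.326 CPM. CXCL1 fell from 16.8 to 18.2 CPM to 9.54 to 10.01 CPM, and LIF and the receptor antagonist IL1RN by 0.62 each. In 3xSR some inflammatory members were higher still: CXCL8 stood at 26.7 to 28.7 CPM and IL1A at 41.3 to 43.8 CPM, against 13.1 to 15.5 and 26.7 to 27.2 CPM in MYC-OE (edgeR adjusted p = 3.47e-06 and 0.000176). Over the list 3 genes were higher and 9 lower in MYC-OE than in 3xSR.

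The extracellular matrix and adhesion list held many of the larger changes, with 42 of 80 genes higher and 8 lower (13 lower without 3xCTL replicate 2). Among the glycoproteins, FN1 (fibronectin) rose from 27.6, 31.6 and 31.0 CPM to 103, 91.8 and 107 CPM (log2 fold change 1.74, edgeR adjusted p = 7.23e-09), while 3xSR stayed at 29.6 to 31.8 CPM. COL6A2 rose by 2.05, from 5.78 to 11.4 CPM to 33.8 to 41.5 CPM, COL1A2 and periostin (POSTN) by 2.52 and 1.71, and COL17A1, the hemidesmosome collagen, by 0.52. COL8A1 had 0 counts in all 3xCTL libraries and 0.466 to 0.520 CPM in MYC-OE, and its call was lost without 3xCTL replicate 2 or any 1 MYC-OE library (edgeR adjusted p up to 0.0576). Among the integrins ITGA4 went from 0.700 to 0.925 CPM to 9.50 to 10.9 CPM, while ITGB8 fell by 0.69 and ITGB4 did not pass the test (0.20). Proteases and their inhibitors had 11 of 17 higher and 1 lower: urokinase (PLAU) rose from 168 to 177 CPM to 329 to 336 CPM and the gelatinase MMP2, listed with the EMT genes, from 9.60 to 10.02 CPM to 36.5 to 38.3 CPM. HMCN1, COL12A1 and THBS1 were lower, at -2.71, -0.87 and -0.49. THBS1 (thrombospondin), reported as repressed by MYC, went from 1225 to 1351 CPM to 908 to 924 CPM, and was lower still in 3xSR at 599 to 664 CPM.

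Genes of the epithelial-mesenchymal transition (EMT) moved in both directions, with 10 of 24 higher and 7 lower. VIM (vimentin) rose from 0.191, 0.243 and 0.194 CPM to 3.23, 3.54 and 4.21 CPM (log2 fold change 4.13, edgeR adjusted p = 6.64e-09), and the transcription factor gene ZEB1 rose at levels under 0.4 CPM (1.79) and lost its call without MYC-OE replicate 2 or replicate 3 (edgeR adjusted p up to 0.0557). S100A4 fell from 24.6 to 26.7 CPM to 12.5 to 13.5 CPM, TGM2 by 0.73, and CDH2 (N-cadherin) and SNAI2 by 0.31 each. SNAI1, TWIST1 and TWIST2, also EMT transcription factors, rose by 1.15, 0.65 and 0.88, and FOXC2 and the smooth muscle gene TAGLN fell by 0.95 and 0.57. Of 8 epithelial genes 1, the splicing regulator ESRP2, fell (-0.25) and 2 rose. CDH1 (E-cadherin) was at 421 to 462 CPM in 3xCTL and 433 to 449 CPM in MYC-OE (log2 fold change -0.02, edgeR adjusted p = 0.83), and EPCAM and CDH3 rose by 0.26 and 0.30. Tight junction genes had 3 of 15 higher and 4 lower, against 18.0% and 17.3% of all genes. CLDN8 fell from 36.3 to 36.8 CPM to 16.7 to 19.8 CPM, CLDN1 and TJP1 by 0.47 and 0.41, OCLN rose by 0.70 and CLDN7 and F11R by 0.20 and 0.17, and CLDN4 did not pass except without 3xCTL replicate 2. CLDN7 lost its call without any library but 3xCTL replicate 3, and F11R lost it without MYC-OE replicate 1, MYC-OE replicate 2 or 3xCTL replicate 1 (edgeR adjusted p up to 0.142 and 0.102). Without MYC-OE replicate 1 or replicate 2, 1 tight junction gene was higher.

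Markers of other cell types also differed between the groups. The summed level of 9 fibroblast markers was 53.7 to 56.4 CPM in 3xCTL and 38.6 to 40.0 in MYC-OE; LUM fell, THY1 rose from 6.12 to 6.63 CPM to 19.3 to 20.7 CPM, and DPT was at 0 counts. The summed level of 9 leukocyte markers was 7.60 to 13.1 CPM in 3xCTL and 34.8 to 38.6 in MYC-OE. Nearly all of it was CD68, a lysosomal protein that shares exons with a neighbouring gene (5.92 to 10.6 against 32.1 to 36.1 CPM); CD3D and CD3E had at most 5 counts in a library. Their part in the matrix and interferon results was not tested.

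Squamous differentiation genes of the outer epidermal layers were mostly higher. Of 46 keratin and squamous genes 22 were higher and 8 lower, and of the 21 suprabasal and cornified ones 14 were higher and 2 lower, with a median log2 fold change of 1.35 in this subgroup. SPRR1B, a precursor of the cornified envelope, rose from 4.90, 4.32 and 4.82 CPM to 24.3, 23.1 and 24.9 CPM (log2 fold change 2.36, edgeR adjusted p = 1.84e-09). SPRR3, KRT1 and involucrin (IVL) rose by 2.36, 2.22 and 1.02, and SPRR2A rose at levels up to 0.313 CPM. All of these were also above the control in 3xSR: SPRR1B was at 12.7 to 14.5 CPM there and KRT1 at 5.20 to 6.61 CPM. The transglutaminase TGM1, which crosslinks the envelope, and LCN2 fell by 0.76 and 0.91. The hair keratins KRT86 and KRT81 fell by 1.17 and 0.74, and the keratin KRT80 by 0.51. KRT86 lost its call without any library but MYC-OE replicate 2 and 3xCTL replicate 2, and KRT81 lost it without MYC-OE replicate 1, MYC-OE replicate 2 or 3xCTL replicate 1 (edgeR adjusted p up to 0.116 and 0.0798). The basal keratin KRT5 did not pass the test (2390 CPM in 3xCTL and 2339 in MYC-OE on average), KRT14 rose by 0.47, and KRT8 and KRT18 rose by 0.40 and 0.21. TP63, the master factor of squamous epithelium, fell by 0.24 (edgeR adjusted p = 0.051 without MYC-OE replicate 3) and PKP1 by 0.33, and DSG3 did not pass (0.05).

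Of 24 genes of EGFR family and MAPK signalling 12 were higher and 6 lower. The receptor gene EGFR did not pass the test (726 to 787 CPM in 3xCTL and 732 to 747 CPM in MYC-OE), while 6 of 9 genes for EGFR family ligands were higher and 2 lower. AREG (amphiregulin) rose from 29.1 to 33.3 CPM to 48.2 to 52.97 CPM, TGFA by 0.49 and HBEGF by 0.41, and EGF and EREG fell by 0.45 and 0.25. Of the feedback regulators 6 of 11 were higher and 3 lower: ETV5 rose by 0.86, SPRED1 and SPRY4 fell by 0.88 and 0.59, and DUSP6 did not pass (0.02). 3xSR had much higher SPRY4 and DUSP6 (22.6 to 25.3 and 78.8 to 84.3 CPM) than MYC-OE (5.11 to 6.81 and 30.8 to 35.3 CPM). Among AP-1 and immediate early genes 6 of 15 were higher and 3 lower. FOSL1, the AP-1 member FRA1, rose from 23.1 to 29.1 CPM to 46.9 to 53.3 CPM and JUN by 0.34, EGR1 fell from 13.7 to 16.5 CPM to 7.56 to 7.96 CPM, IER2 and KLF6 fell by 0.27 and 0.15, and FOS (0.48) did not pass, though it did without 3xCTL replicate 3. IER2 lost its call without 3xCTL replicate 3 and KLF6 without MYC-OE replicate 2 or replicate 3 (edgeR adjusted p up to 0.0554 and 0.0872). Without MYC-OE replicate 2, 3 of them were higher. In the TGF-beta list 10 of 33 were higher and 13 lower. The inhibitory SMAD6 fell from 25.9 to 29.8 CPM to 10.3 to 11.4 CPM, SMAD7 by 0.41, and ID2 and ID4 by 0.28 and 0.47, while TGFB1 and TGFBR2 rose by 0.64 and 0.45 and LTBP2, which binds latent TGF-beta, by 1.00. TGFB2 and TGFB3 fell by 0.21 and 0.49, and ID1 and ID3 did not pass. TGFB2 lost its call without any 1 of the 6 libraries and ID2 without any but MYC-OE replicate 1 and 3xCTL replicate 2 (edgeR adjusted p up to 0.121 and 0.0939). Without MYC-OE replicate 3, 8 of the list were lower. Of 8 tested genes reported as repressed by MYC, 3 were lower and 2 higher, the latter CDKN1A and NDRG1, and NDRG2 did not pass (0.02).

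Several of the genes that went against their list lay in a few chromosome segments. Genes with a mean of at least 1 CPM were ordered by position in GENCODE release 29 (GRCh38), and the median log2 fold change was taken in running windows of 50. Over all such windows the middle 95% of medians lay between -0.39 and 0.34. On chromosome 20, 238 of 579 genes (41.1%) were higher and 46 (7.94%) lower, and on chromosome 15, 85 of 801 (10.6%) were higher and 266 (33.2%) lower. Chromosome 3 had 29.9% higher and 10.2% lower.

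The highest window ran over chr2:164492812-176637931, from GRB14 to LINC01116, with 42 of 50 genes higher, 1 lower and a median of 0.77. In the MYC-OE libraries the window's median stood 0.796, 0.756 and 0.746 above the control mean, and in the 3xSR libraries 0.640, 0.564 and 0.595. ITGA6, PDK1, SPC25 and ATP5MC3 lie in it. The next 3 were on chromosome 20: chr20:52051663-62861763 (median 0.54, with RPS21, AURKA, ATP5F1E and BMP7), chr20:41028818-47188844 (0.51, with UBE2C and SRSF6) and chr20:33811304-37872129 (0.43, with EIF6, EIF2S2, RBL1 and ACSS2). The fifth, chr3:142724074-158829719, had a median of 0.42 and held GMPS. In these 5 windows 3xSR was also above 3xCTL, with medians of 0.61, 0.32, 0.33, 0.30 and 0.42 in the same order.

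The lowest window was chr19:37217926-40090938, from ZNF383 to ZNF780A, with 44 of 50 genes lower, 2 higher and a median of -0.89. Here MYC-OE stood apart from 3xSR: the window's median was -0.864, -0.864 and -0.841 in the MYC-OE libraries and -0.212, -0.136 and -0.161 in the 3xSR libraries, relative to the control mean. FBL, RPS16, MRPS12, EIF3K and HNRNPL all lie in this stretch of 2.87 Mb. The window chr15:45361124-57550727, from GATM to CGNL1, followed with 43 genes lower and a median of -0.88 (-0.49 for 3xSR), and holds DUT. FBN1 lies there too and rose by 0.93. The window chr15:24823637-39785617 (median -0.49) holds THBS1, SPRED1 and TJP1. On chromosome 17, chr17:74748652-76307998 (median -0.47, with MRPS7, MRPL58 and ATP5PD) and chr17:76470891-80966371 (-0.46, with SRSF2 and TIMP2) had 38 and 32 genes lower and none higher.

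The 5 highest windows held 232 of the 4173 higher genes (5.56%) and 6 lower ones, and the 5 lowest held 224 of the 4009 lower genes (5.59%) and 14 higher ones; each set made up 1.79% of the genes tested. With the genes of all 10 windows left out, the ribosomal protein list had 68 of 75 higher and 0 lower, the matrix list 39 of 72 higher and 6 lower, the interferon, squamous and stress-response lists were as before since no member lies there, and the translation factor list had 8 of 45 higher and 3 lower. The windows were found from the same fold changes, so these values are a description, and DNA copy number was not analysed here.

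**Figure D4:**
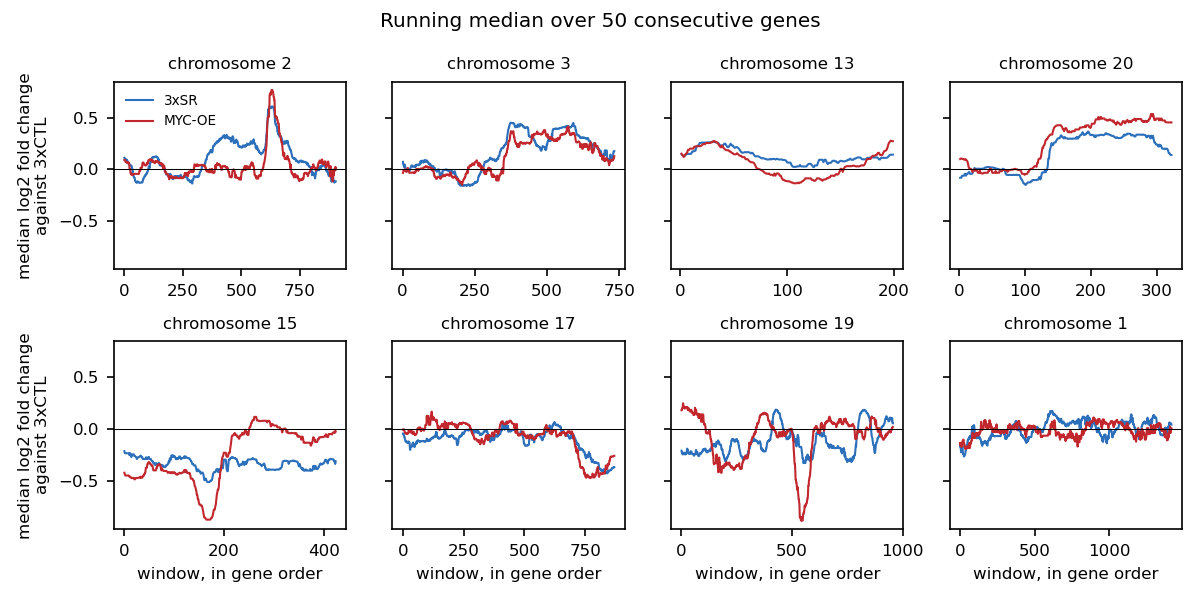
Running median of the log2 fold change against 3xCTL over 50 consecutive genes, by gene order, on 8 chromosomes; red MYC-OE, blue 3xSR, which share the control libraries. MYC-OE has a peak of 0.77 on chromosome 2, a plateau on chromosome 20 and troughs near -0.88 on chromosomes 15 and 19, while chromosome 1 stays near 0.

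**Figure D5:**
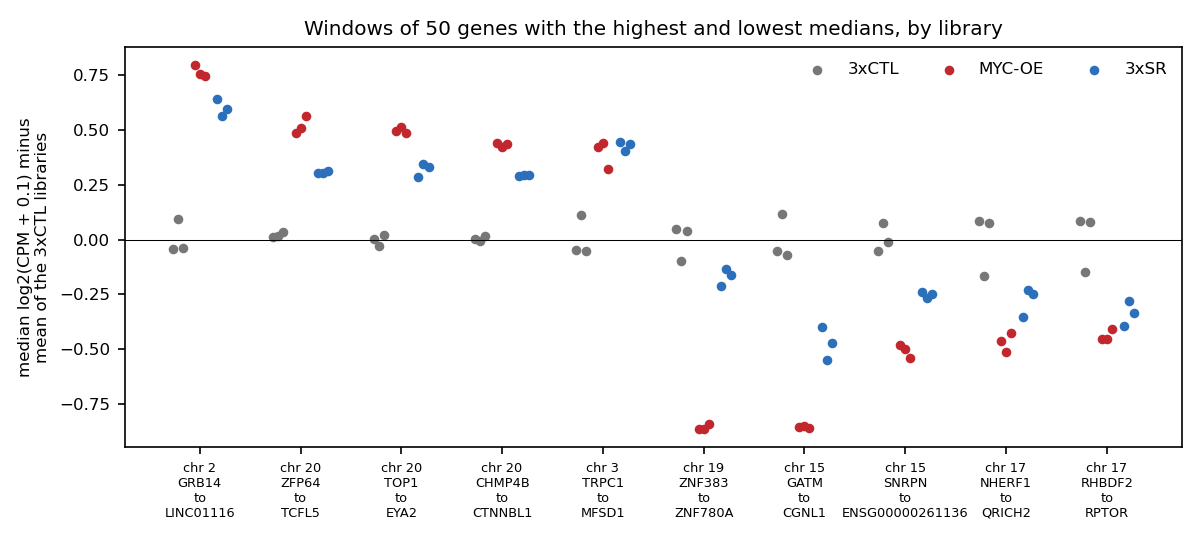
Median of log2(CPM + 0.1) over the 50 genes of each of the 5 highest and 5 lowest windows, per library, relative to the mean of the 3xCTL libraries; grey 3xCTL, red MYC-OE, blue 3xSR. The 3 libraries of a line lie close together, and 3xSR lies between MYC-OE and 3xCTL except on chromosome 3, where it overlaps MYC-OE.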

How the data were processed

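Gene counts of polyA-selected stranded libraries from 2D cultures of HCC1806 were taken as the authors deposited them, in 1 table of raw counts per gene. The submitters' processing notes name Trimmomatic 0.39, STAR, StringTie 2.1.3b and GRCh38.p13. The counting step, its strand setting and the annotation release are not given in the sources used here, so reads of overlapping genes may not be separable. Groups came from the genotype and title labels.

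Counts were tested with edgeR 4.0.16 in R 4.3.3: genes kept by filterByExpr with a minimum count of 10 (total 15), TMM scaling, and a robust quasi-likelihood F test fitted on 9 libraries (3xCTL, 3xSR and MYC-OE), with Benjamini-Hochberg adjustment over all genes tested and a threshold of 0.05. The fit was checked on simulated counts with 200 changed genes, far fewer than the data called. At 1.5-fold and 2-fold changes 47% and 57.5% of them were recovered, and 82.9% and 98.9% of those at 5 CPM or more. Of 102 and 126 calls, 8 and 11 were false, and with no gene changed there were 0 calls. The authors' counts were also run through DESeq2 1.42.0 and limma 3.58.1 as alternatives. CPM used the TMM-scaled library sizes. Named genes were the 12 with the largest rise and the 12 with the largest fall among called genes with a symbol, a mean of at least 5 CPM and no overlap between groups, the 6 largest gains and losses in CPM, genes switched on or off between 0.1 and 1 CPM, and anchor and leading members of 28 gene lists. A further few list members were named after their values were seen. The members and lists were chosen with earlier results of these data known. GENCODE release 29 gave positions for 58561 of the 60668 identifiers, matched without version. Some named genes are not reported here.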

Additional observations from a re-analysis of the deposited data

How the results depend on the processing

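Over the other settings run, the number of called genes ran from 7572 (only the 6 compared libraries) to 10043 (GC trend removed) and 10061 (GC trend removed with a replicate block), apart from 2 kinds of setting. A test against a minimum log2 change of 1 called 647 genes (502 higher, 145 lower) and gave MYC 0.90 with an adjusted p of 1. Leaving out 1 library gave 6556 to 9009 calls, 3349 to 4643 higher and 3206 to 4366 lower. DESeq2 called 8676 and scaling by total counts alone 8442, split 3772 higher and 4670 lower. With the GC trend removed, the nucleolar list had 8 higher members in place of 3 and the translation factors 18 in place of 10. The DNA replication list then had 6 higher in place of 2, and the sterol and fatty acid list 9 lower in place of 3. The median of the TGF-beta list changed sign in that setting. A replicate block gave 7767 calls (3943 higher, 3824 lower). Same-numbered libraries did not deviate together (correlations -0.0063, -0.0206 and -0.0938, and no library correlated best with its own number), so the numbers were not taken as pairs. The share of lower genes with CACGTG was 8.87% in the 250 bases before the start and 6.27% among falls of at least 1. The highest and lowest windows stood at 0.80 and -0.99 with 25 genes, 0.49 and -0.62 with 100 genes. Chosen after seeing the data, the same 50-gene windows stood at 0.82 and -0.85 with the GC trend removed and at 0.73 and -0.92 with total counts alone, and at 0.81 and -0.92 without 3xCTL replicate 2. No named gene reversed, but of 298 tested so, 11 to 26 lost their call with 1 library left out, 14 with only the 6 libraries, 16 with no filter and 195 with the minimum change. With 3 libraries a group, and 3xCTL replicate 2 apart from the others, small changes near the threshold are the least certain.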
